A study of Mus musculus with 5 samples.

Results

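The Mir302 genes encode a family of microRNAs that is abundant in undifferentiated embryonic stem cells. The genes analysed were Mir302a, Mir302b and Mir302c together with Larp7, the protein-coding gene in whose span they lie. They were taken as all array features with exactly 1 gene symbol, that symbol being one of these 4, and this gave 5 features (1 for each microRNA gene and 2 for Larp7). They make up 4 of the 19938 named genes on the arrays. The 3 microRNA genes were picked because they fell strongly in the same comparison that is described here, so their differences between genotypes are given as a description, with no test.

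A microRNA is cut out of a hairpin in a longer primary transcript by the nuclease Drosha with its partner Dgcr8, trimmed by Dicer1 and loaded into an Argonaute protein. It then pairs with messenger RNAs mainly through its seed, the bases near its 5′ end, and lowers their stability and translation. The Mir302 hairpins are known to be made from 1 shared primary transcript that also carries Mir367, and the family is known for supporting the rapid cell cycle and the pluripotent state of stem cells. Larp7 encodes a protein that binds and stabilises the 7SK RNA, which holds the elongation kinase P-TEFb in an inactive complex.

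Undifferentiated embryonic stem cells of mouse strain C57BL/6 were profiled in 2 groups, wild type (2 arrays) and Mkl2-/- (3 arrays), each array from its own culture. Mkl2 (current symbol Mrtfb) encodes a coactivator of serum response factor. Both groups grew on a feeder layer of mouse fibroblasts in medium with serum and LIF (leukaemia inhibitory factor), and most feeders were left behind by letting them adhere to a dish before lysis. How the Mkl2 allele was made and how many lines each genotype had is not stated in the labels, so p-values measure only the spread between cultures.

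The hairpins are shown first, because they are the annotated targets of the array features. Sequences are from RefSeq on build GRCm38.p6, and all 5 lie on the plus strand of chromosome 3 within 580 bases. Capitals mark AAGUGCU, the seed of the family, in the Mir302 hairpins and AUUGCAC, the seed of miR-367-3p, in Mir367.
Mir302b (chr3:127545228-127545301): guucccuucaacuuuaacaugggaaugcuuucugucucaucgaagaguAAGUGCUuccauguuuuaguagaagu
Mir302c (chr3:127545363-127545430): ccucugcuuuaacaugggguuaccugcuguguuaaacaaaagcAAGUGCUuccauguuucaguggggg
Mir302a (chr3:127545496-127545564): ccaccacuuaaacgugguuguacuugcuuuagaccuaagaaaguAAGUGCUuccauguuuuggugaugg
Mir302d (chr3:127545624-127545689): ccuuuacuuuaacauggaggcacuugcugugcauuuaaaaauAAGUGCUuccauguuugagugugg
Mir367 (chr3:127545733-127545807): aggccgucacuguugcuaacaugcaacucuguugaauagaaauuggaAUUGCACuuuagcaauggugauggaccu

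The mature forms group by seed (bases 2 to 8, in capitals). The first set holds miR-302b-3p and miR-302d-3p with members of the Mir290 cluster, the other large microRNA cluster of mouse stem cells. The RefSeq entry of miR-302c-3p begins 1 base later than those of miR-302b and miR-302d, so its bases 2 to 8 read AGUGCUU although its hairpin also holds AAGUGCU. The entry of miR-302a-3p is not printed here.
miR-302b-3p: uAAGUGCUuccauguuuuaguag
miR-302c-3p: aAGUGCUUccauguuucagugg
miR-302d-3p: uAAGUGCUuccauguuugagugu
miR-291a-3p: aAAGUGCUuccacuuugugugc
miR-294-3p: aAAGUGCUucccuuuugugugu
miR-295-3p: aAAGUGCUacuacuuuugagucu
The Mir17 relatives carry the same core shifted by 1 base (AAAGUGC), and miR-367-3p shares its seed with miR-25-3p and miR-363-3p.
miR-17-5p: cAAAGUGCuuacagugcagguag
miR-20a-5p: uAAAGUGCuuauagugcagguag
miR-367-3p: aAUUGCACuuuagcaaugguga
miR-25-3p: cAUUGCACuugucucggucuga
miR-363-3p: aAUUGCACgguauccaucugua

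The Mir302 genes were above the array background in wild-type cells and below it in Mkl2-/- cells. All levels are on the log2 scale of the deposited table, and differences were taken as Mkl2-/- minus wild type. The background level was set at the 95th percentile of 1027 olfactory receptor genes, which stem cells are not known to use; it was 7.30, and the median of those genes was 5.53. Mir302b stood at 7.77 and 7.77 on the wild-type arrays, against 6.07, 5.89 and 5.14 on the Mkl2-/- arrays. Mir302c stood at 8.14 and 8.31 on the wild-type arrays, against 6.59, 6.26 and 5.85 on the Mkl2-/- arrays. Mir302a stood at 7.81 and 8.13 on the wild-type arrays, against 6.19, 6.24 and 5.73 on the Mkl2-/- arrays. In each of the 3 genes both wild-type arrays lay above 7.30, all 3 Mkl2-/- arrays lay below it, and the groups did not overlap. Of all 19938 genes, 16.7% were lower in Mkl2-/- with no overlap, and nothing is read from that share, since the genes were picked on this contrast.

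The fitted differences were -2.07 ± 0.37 for Mir302b, -1.99 ± 0.28 for Mir302c and -1.92 ± 0.24 for Mir302a (SE, n = 2 and 3). A dim signal only bounds the fold. With arrays below 7.30 set to that level, the fall was at least 1.39-fold for Mir302b, at least 1.90-fold for Mir302c and at least 1.59-fold for Mir302a. With the median olfactory receptor level of 5.53 in its place, the values were 3.83-fold, 3.98-fold and 3.78-fold. No array of Mir302c or Mir302a lay below 5.53, so their values are the measured folds and not bounds. For Mir302b only Mkl2-/- replicate 3 (5.14) lay below it. The bounds therefore depend on where background is drawn. In a bulk sample, fewer cells with the transcript and less transcript in each cell cannot be told apart.

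**Figure D1:**
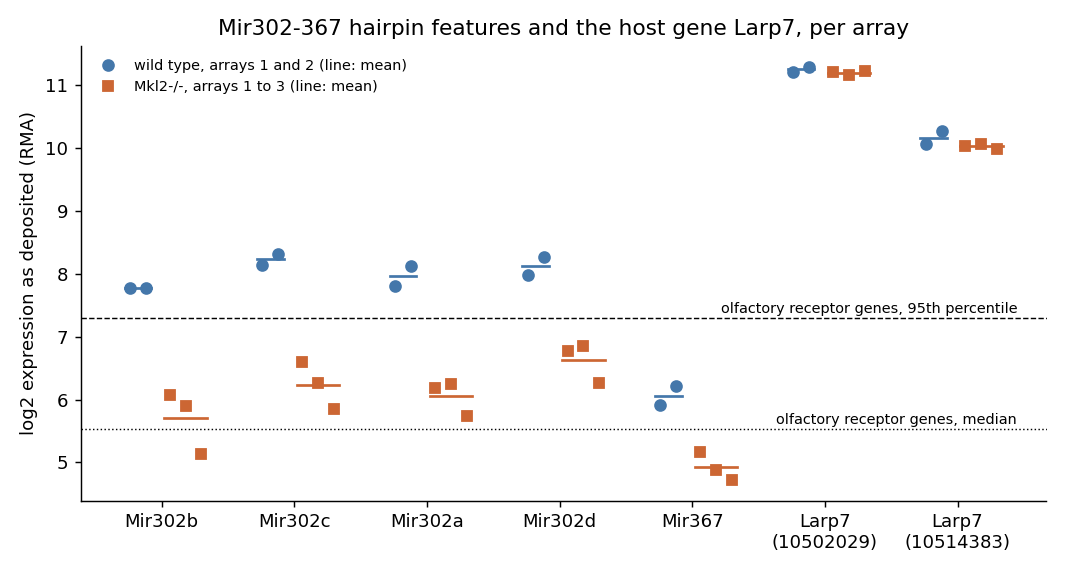
Deposited log2 expression (vertical axis) of the 5 hairpin features and both Larp7 features, with 1 point per array (circles: 2 wild-type arrays; squares: 3 Mkl2-/- arrays), bars at the group means, and dashed and dotted lines at the 95th percentile (7.30) and median (5.53) of the olfactory receptor genes. The Mir302 features sit above the dashed line in wild type and below it in Mkl2-/-, whereas both Larp7 features lie near 10 to 11 in all arrays.

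The hairpins shared their lowest array. Mkl2-/- replicate 3 was the lowest of all arrays for each of the 5 hairpins. It lay 0.56 below its group mean for Mir302b and 0.20 below it for Mir367. Over all features the same array was also the farthest of the Mkl2-/- arrays from both wild-type arrays. Its SDs of differences were 0.292 and 0.345, against 0.253 to 0.281 for the others. The shared lowest array is therefore not read as particular to the hairpins. Wild-type replicate 2 was the highest for 4 hairpins and tied with replicate 1 for Mir302b. Leaving out Mkl2-/- replicate 3 gave differences of -1.79 for Mir302b, -1.80 for Mir302c and -1.76 for Mir302a. The groups did not overlap in these genes, so leaving out an array could not have reversed the sign.

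Larp7, the gene around the hairpins, differed far less than they did. It lies on the minus strand, opposite to the hairpins, and its span holds all 5 of them. Feature 10502029 stood at 11.21 and 11.30 on the wild-type arrays, against 11.21, 11.16 and 11.23 on the Mkl2-/- arrays, a difference of -0.05 ± 0.04. Feature 10514383 stood at 10.07 and 10.27 on the wild-type arrays, against 10.04, 10.07 and 9.99 on the Mkl2-/- arrays, a difference of -0.14 ± 0.08. In both features the groups overlapped, and all arrays lay above background. For 10514383 the overlap is only a tie at 10.07. Its number is close to that of Mir31 on chromosome 4 (10514338). Where 10514383 maps was not checked, so it may not read the gene around the hairpins. The larger of the Larp7 differences was -0.14, and the smallest among the 3 chosen hairpins was -1.92.

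Mir302d and Mir367, the remaining hairpins of the cluster, are read by features of their own and were not among the genes chosen. Mir302d stood at 7.99 and 8.27 on the wild-type arrays, against 6.77, 6.85 and 6.27 on the Mkl2-/- arrays, a difference of -1.50 ± 0.26 (limma adjusted p = 0.0388), and was at least 1.78-fold lower. Mir367 stood at 5.91 and 6.21 on the wild-type arrays, against 5.17, 4.88 and 4.72 on the Mkl2-/- arrays, a difference of -1.14 ± 0.20 (adjusted p = 0.0426). All 5 arrays lay below 7.30 for Mir367, so no fold is given. For both genes the groups did not overlap. They share a transcript with the chosen genes, and the features are therefore not separate evidence. Both calls sat close to the threshold: in a fit of all 35556 features the adjusted p was 0.054 for Mir302d and 0.0593 for Mir367, and with any 1 array left out it ranged from 0.0663 to 0.18 for Mir302d and from 0.0813 to 0.18 for Mir367, while the differences stayed between -1.32 and -1.64 and between -0.99 and -1.29.

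Placed by position from the 5′ end to the 3′ end of the cluster, the measured differences were -2.07 at Mir302b, -1.99 at Mir302c, -1.92 at Mir302a, -1.50 at Mir302d and -1.14 at Mir367. No order of the falls is read from them, since all 5 hairpins lay below background on every Mkl2-/- array, where the preprocessing compresses differences. The bounds of the fold cannot rank the falls along the cluster either. For them every Mkl2-/- array was set to the background level, so each bound restates only the wild-type mean. The bounds were 1.39 for Mir302b, 1.59 for Mir302a, 1.78 for Mir302d and 1.90 for Mir302c. The wild-type means of these genes were 7.77, 7.97, 8.13 and 8.23, in the same order.

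**Figure D2:**
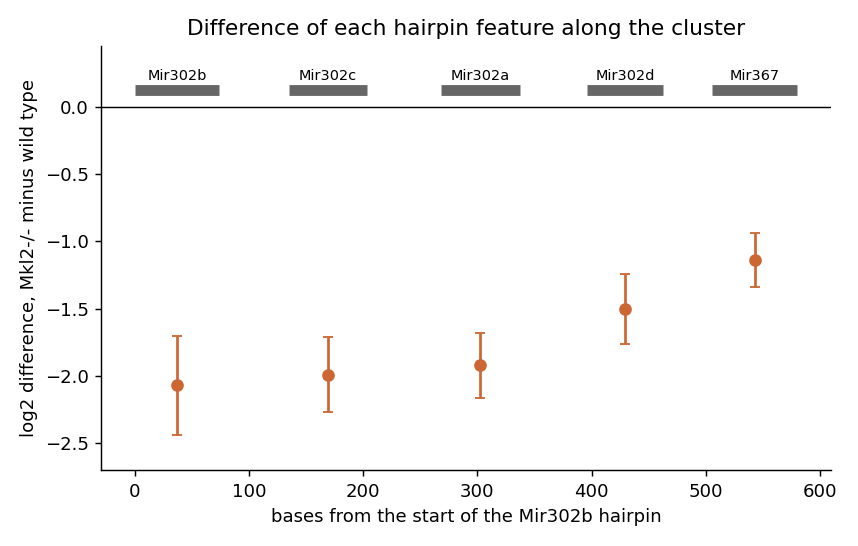
Difference in log2 expression (Mkl2-/- minus wild type, vertical axis; bars are SE, n = 2 and 3) of the 5 hairpin features against distance in bases from the start of the Mir302b hairpin, with grey blocks for the hairpins. The measured differences lie between -2.07 (Mir302b) and -1.14 (Mir367), and all 5 features were below background on the Mkl2-/- arrays.

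In RefSeq the hairpins lie within Gm51018, a long noncoding RNA gene of 1815 bases whose start is 139 bases before Mir302b; it has no feature of its own with 1 symbol. The window from 250 bases before to 50 bases after that start (chr3:127544839-127545138, plus strand, RefSeq, GRCm38.p6) is printed because the 5 hairpins moved together. Capitals mark motif matches, searched on both strands. The TATA box was searched as TATAAA. The core shared by SOX and TCF factors was searched as ACAAAG. The octamer, which Pou5f1 binds, was searched as ATGCAAAT. The SMAD element was searched as CAGAC, and the CArG box of serum response factor by its usual consensus.
Gm51018: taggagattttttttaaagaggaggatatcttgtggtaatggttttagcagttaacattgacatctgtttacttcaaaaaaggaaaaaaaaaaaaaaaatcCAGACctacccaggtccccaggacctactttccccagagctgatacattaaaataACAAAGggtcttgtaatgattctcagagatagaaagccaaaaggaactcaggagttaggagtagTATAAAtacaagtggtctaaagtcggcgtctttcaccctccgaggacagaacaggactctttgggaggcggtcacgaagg
TATAAA began 30 bases before the start, a motif held by 13.6% of all 32851 windows of this length. ACAAAG began 94 bases before it (18.7% of windows) and CAGAC 149 bases before it (49.6% of windows). The octamer (1.74% of windows) and the CArG box (1.63% of windows) had no match, which says only that these letters are not in this window. No match overlapped another.

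The genes around Larp7 differed less than the hairpins, in both directions. Of the 5 measured genes on each side of its span, Ank2 (an ankyrin adaptor of the membrane skeleton, next to Larp7) fell by 0.47 ± 0.06 on the log2 scale (limma adjusted p = 0.0195), and Ugt8a (a galactosyltransferase of sphingolipid synthesis) rose by 0.58 ± 0.06 (adjusted p = 0.0142). The other 8 did not pass the test. Ndst4 differed by 0.10, Arsj by 0.23, Camk2d by -0.29, Zgrf1 by -0.10, Neurog2 by 0.04, Tifa by 0.02, Ap1ar by -0.03 and Fam241a by 0.23 (adjusted p = 0.0504). Over all genes 9.27% passed the test, 2.99% higher and 6.28% lower in Mkl2-/- (1848 of 19938, with 596 higher and 1252 lower). In a fit of the 13564 genes with a mean above background, 2359 passed. The share called was thus higher among brighter genes, and 9.27% is not a like base for bright or dim lists. With a further quantile normalization 43.2% of the calls were higher, against 32.3% without it. Without wild-type replicate 2 limma made 0 calls among all genes, with 4411 at an unadjusted p under 0.05, so each single-gene call in this text was lost in that fit.

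**Figure D3:**
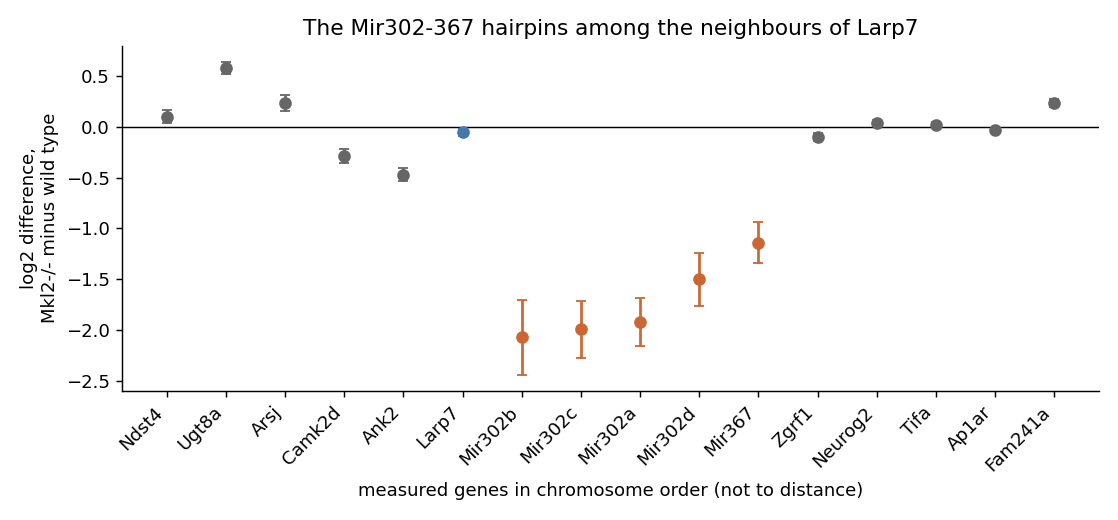
Difference in log2 expression (Mkl2-/- minus wild type; bars are SE, n = 2 and 3) of the 5 measured genes before Larp7, Larp7 (feature 10502029), the 5 hairpins and the 5 measured genes after Larp7, in chromosome order. The hairpins stand between -2.07 and -1.14, while the 10 flanking genes lie between -0.47 and 0.58.

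Among the other microRNA genes, rises prevailed over falls, and most rises were on chromosome 12. Of 293 measured microRNA genes besides Mir302a, Mir302b and Mir302c, 16 passed the test (5.46%, against 9.27% of all genes): 14 rose, and the 2 that fell were Mir302d and Mir367. Only 106 of the 293 had a mean above background. In the fit of such genes alone 14 of the 106 passed, against 2359 of 13564 genes. Of the 47 microRNA genes of chromosome 12, 13 rose and none fell, led by Mir377 (1.82 ± 0.17, limma adjusted p = 0.0131), Mir382 (1.75 ± 0.24, adjusted p = 0.0248), Mir300 (1.24 ± 0.10, adjusted p = 0.0104), Mir543 (0.89 ± 0.14, adjusted p = 0.0328), Mir134 (0.85 ± 0.04, adjusted p = 0.00668) and Mir679 (0.82 ± 0.07, adjusted p = 0.0119). Mir382 and Mir300 lay below 7.30 on both wild-type arrays, and Mir543 lay below it on all 5 arrays. The features of the 13 genes that rose have close numbers, from 10398348 (Mir136) to 10398432 (Mir377). Whether these genes share 1 locus or transcript was not tested, so their calls are not taken as separate evidence. On other chromosomes 3 of 246 passed, the third being Mir6516 (0.29 ± 0.05, adjusted p = 0.033). The median difference was 0.39 on chromosome 12 and 0.03 elsewhere, against 0.02 over all genes. The count of 16 ranged from 0 (without wild-type replicate 2) to 15 when single arrays were left out, with 2 without Mkl2-/- replicate 1 and 5 without either of the other Mkl2-/- arrays; without wild-type replicate 1 only 2 of the 15 calls were on chromosome 12.

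Relatives by seed outside the cluster were compared next. The Mir290 cluster, which carries the AAGUGCU seed, was not analysed here. Of 13 measured genes of the Mir17, Mir106a and Mir106b clusters, whose members include the shifted seed AAAGUGC, limma called 0 at an adjusted p of 0.05 (against 9.27% of all genes, a share at which 0 of 13 says little about the list), and 4 had an unadjusted p under 0.05. Mir17 stood at 6.97 and 7.06 on the wild-type arrays, against 7.24, 7.31 and 7.47 on the Mkl2-/- arrays (0.33 ± 0.09, adjusted p = 0.113). Mir18 differed by 0.44 ± 0.10 (adjusted p = 0.0672) and Mir19b-1 by 0.76 ± 0.20 (adjusted p = 0.0933). The groups did not overlap in 6 of the 13 genes, these 3 among them. Of all genes, 16.9% were higher and 16.7% lower in Mkl2-/- with no overlap, and nothing is read from the count. Of the genes that share the seed of miR-367-3p, Mir25 differed by 0.33, Mir363 by -0.06, Mir92-2 by 0.10, Mir92b by 0.17 and Mir32 by -0.15, none past the test.

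**Figure D4:**
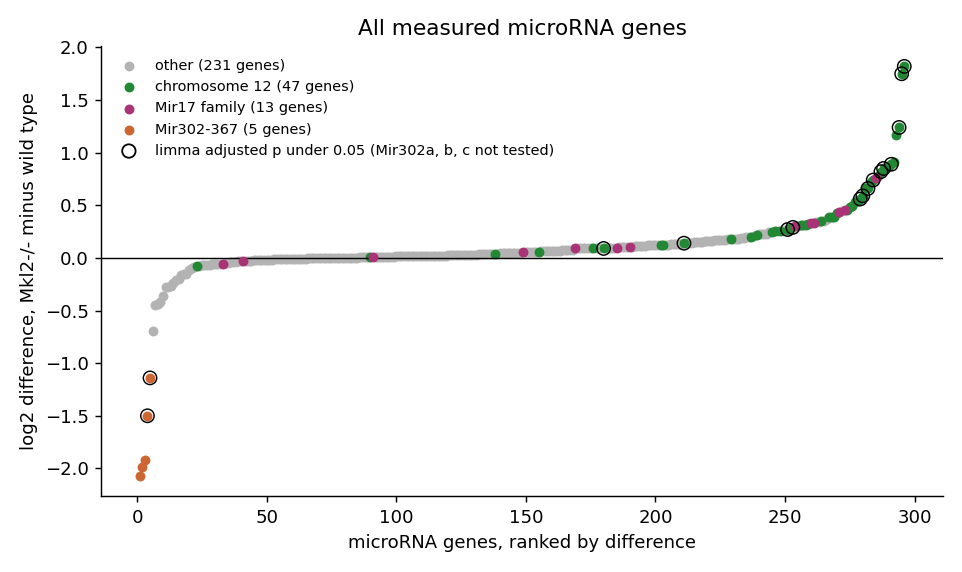
All 296 measured microRNA genes ranked by their difference in log2 expression (Mkl2-/- minus wild type), coloured as cluster genes, chromosome 12, Mir17 family clusters and other; black rings mark a limma adjusted p under 0.05. The 5 cluster genes hold the lowest ranks, from -2.07 to -1.14, and the chromosome 12 genes hold most of the highest. Mir302a, Mir302b and Mir302c were picked on this difference and the other cluster genes share their transcript, so nothing is read from their ranks.

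Of 24 genes of microRNA processing and silencing, 1 rose, 1 fell and 22 did not pass (8.33% called, against 9.27% of all genes). In the fit of genes with a mean above background 2 of 23 passed, against 2359 of 13564 genes. Dis3l2, an exonuclease that degrades uridylated precursors, fell by 0.49 ± 0.06 on the log2 scale (limma adjusted p = 0.019), and Tarbp2, a partner of Dicer1, rose by 0.26 ± 0.04 (adjusted p = 0.0338). The nuclease gene Drosha differed by 0.03, its partner Dgcr8 by 0.05, Dicer1 by -0.18, Ago1 by -0.39, Ago2 by 0.16 and Lin28a, which blocks processing of let-7, by -0.14, none past the test. With single arrays left out 0 genes passed without wild-type replicate 2 and 1 passed in each of the other fits.

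Of 7 measured genes of the 7SK complex and P-TEFb, limma called 0 (against 9.27% of all genes, a share at which 0 of 7 says nothing about the list), and 1 had an unadjusted p under 0.05: Hexim1, the inhibitor subunit, at 0.17 ± 0.05 (adjusted p = 0.138). All 7 had a mean above background, and in the fit of such genes alone 0 passed, against 2359 of 13564 genes. The capping enzyme gene Mepce differed by 0.05, the kinase gene Cdk9 by -0.02, the cyclin genes Ccnt1 and Ccnt2 by 0.07 and -0.09, and the 7SK RNA gene Rn7sk by 0.01. The 7 La-related genes, the family of Larp7, differed by -0.05 (Larp7) to 0.19 (Larp4). The 6 besides Larp7 were tested, and none passed.

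Of 10 genes for factors reported to act at the miR-302 promoter, 2 fell, 2 rose and 6 did not pass (4 of 10 called, against 9.27% of all genes). All 10 had a mean above background, and in the fit of such genes alone 4 passed, against 2359 of 13564 genes. Nanog, a core pluripotency factor, stood at 12.18 and 12.17 on the wild-type arrays, against 11.15, 11.00 and 10.96 on the Mkl2-/- arrays, a fall of 1.14 on the log2 scale (SE 0.07, limma adjusted p = 0.00818). Tcf7l1, a repressor at Wnt target genes, fell by 0.72 ± 0.09 (adjusted p = 0.0206), whereas Lef1, a Wnt effector, rose by 0.73 ± 0.07 (adjusted p = 0.0152) and Gata6, an endoderm factor, by 0.94 ± 0.11 (adjusted p = 0.0198). Pou5f1 (0.03) and Sox2 (0.07), which are known to bind this promoter, did not pass. The list's median was -0.05. With single arrays left out the count of 4 ranged from 0 to 2: 1 without Mkl2-/- replicate 1, 2 without Mkl2-/- replicate 3 and 0 without any of the others.

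Genes reported as targets of the miR-302 seed family were next compared. Of 22 measured, 6 fell, 1 rose and 15 did not pass (31.8% called, against 9.27% of all genes), with a median of 0.00. In the fit of genes with a mean above background 7 of 21 passed, against 2359 of 13564 genes. Those that fell were the Nodal antagonist genes Lefty2 (-1.35 ± 0.11, limma adjusted p = 0.0108) and Lefty1 (-0.97 ± 0.07, adjusted p = 0.0089), the cyclin genes Ccnd2 (-0.93 ± 0.07, adjusted p = 0.0108) and Ccnd1 (-0.32 ± 0.02, adjusted p = 0.0107), the protease gene Casp8 (-0.82) and the interferon regulatory factor gene Irf2 (-0.66). The 1 that rose was Ei24, a gene induced by p53 (0.29 ± 0.03, adjusted p = 0.0162). Lats2, a Hippo kinase gene, differed by -0.23, the pocket protein gene Rbl2 by 0.05 and the receptor gene Tgfbr2 by 0.00, none past the test; Cdkn1a was not analysed here. With single arrays left out the count of 7 ranged from 0 (without wild-type replicate 2 or Mkl2-/- replicate 2) to 3 (without Mkl2-/- replicate 1), with 2 without either of the others.

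**Figure D5:**
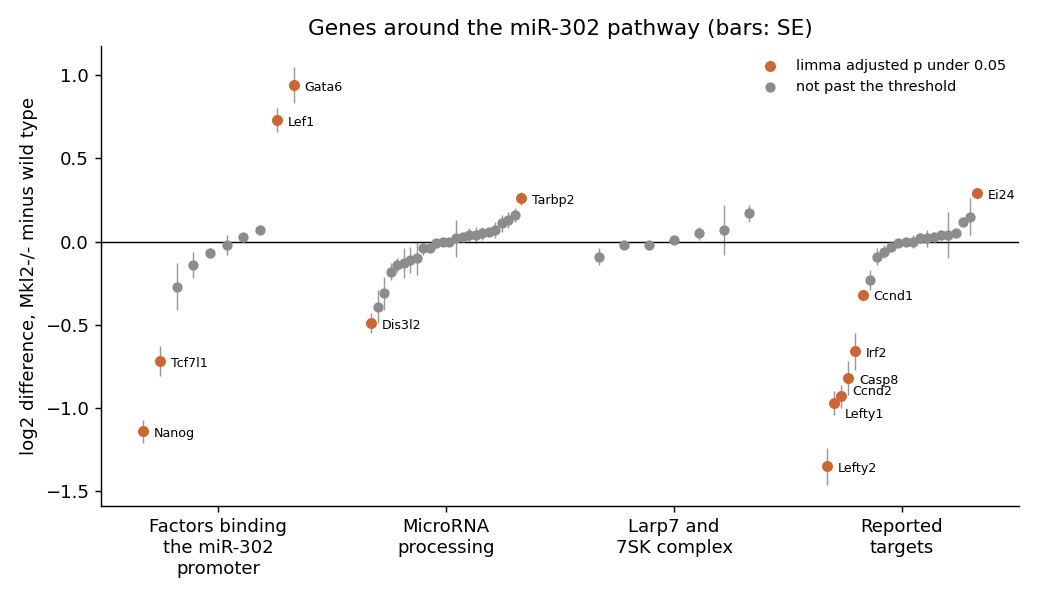
Difference in log2 expression (Mkl2-/- minus wild type; bars are SE, n = 2 and 3) of the genes of 4 lists, each sorted by difference; coloured and named points passed a limma adjusted p of 0.05. Calls are few in the processing and 7SK lists, and the largest fall among the reported targets is Lefty2 at -1.35.

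By array profile, the genes most like the mean of Mir302a, Mir302b and Mir302c were not microRNA genes. Likeness was the root mean square distance between profiles over the 5 arrays, each centred on its own mean, with a median of 1.02 over 19935 genes. Nearest were the kinase gene Rps6ka3 (0.18), the glutamate receptor gene Gria3 (0.20) and the protease inhibitor gene Serpinb9 (0.21). The matrix gene Efemp1 (0.23) and the kinase gene Map3k15 (0.24) followed. Mir302d lay at 0.26, rank 8, and Mir367 at 0.44, rank 54. The mean profile is mainly the gap between genotypes on which its genes were picked. A small distance therefore mostly means a similar difference. The 5 nearest genes differed by -1.95 (Rps6ka3) to -1.70 (Map3k15), against -1.50 for Mir302d and -1.14 for Mir367. No shared regulation is read from the ranks.

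The targeted gene and the markers were checked on the same arrays. The 3 features of Mkl2 were lower in Mkl2-/-, by 0.53 to 0.98 on the log2 scale, with no overlap; the labels do not say which exons were deleted, so these features may not read the deletion itself. All 10 stem cell markers lay above background, with array means of 11.76 to 11.78 in wild type and 11.76 to 11.82 in Mkl2-/-. Of these 10, 3 rose and 1, Nanog, fell (4 of 10 called, against 9.27% of all genes). Of 17 fibroblast markers 15 lay above it, with array means of 8.21 to 8.22 in wild type and 8.09 to 8.14 in Mkl2-/-; Lum and Postn, the other two, lay below it on all arrays. Mmp2, Pdgfrb and Sparc fell, Twist1 rose and the other 13 did not pass the test (23.5% called, against the same 9.27%). Most of these markers were bright, and among genes with a mean above background 2359 of 13564 passed, so 9.27% is a low base for both lists. The part of feeder cells in the differences was not tested.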

How the data were processed

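The authors deposited log2 intensities of 5 arrays, which the submitters' processing notes credit to RMA and to Expression Console 1.1 of Affymetrix. The deposited values are rounded to 2 decimals, run from 3.39 to 14.26 and have array medians of 7.94 to 7.98. RMA narrows differences of dim features. Fragmented cDNA of total RNA was labelled, per the labels, so the signal of a hairpin feature does not separate the primary transcript from the hairpin, and mature microRNAs were not measured. The labels name no scan date or batch. Of 35556 features 21789 had 1 symbol in the platform annotation; the feature with the highest mean was used for each of 19938 genes. No column of per-sample values was left unused.

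The test was that of limma 3.58.1 (lmFit, then eBayes; R 4.3.3), with Benjamini-Hochberg adjustment over all 19938 genes, a threshold of 0.05 and tests of both directions; the fit was tested on simulated data. SEs are from the residual SD with 3 degrees of freedom. The number of arrays limits the precision. RefSeq sequences matched 271 of 296 microRNA genes by symbol. Named were the chosen genes, the rest of the cluster, 5 genes on each side of Larp7, the 5 nearest profiles, microRNA genes with the largest called differences, and in each list the smallest p-values and the defining genes; others were named after their values were seen. The genes, lists and alternatives were chosen with earlier results of these data known. Alternatives were quantile and cyclic loess normalization, eBayes with trend and robust, a filter on dim genes, all features, the replicate number as a block, another background level and each array left out.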

Additional observations from a re-analysis of the deposited data

How the results depend on the processing

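The differences of Mir302a, Mir302b, Mir302c and Larp7 kept their sign under quantile and cyclic loess normalization, the replicate block and each array left out. In these settings they moved by less than the residual SD. With single arrays left out they ranged from -1.76 to -2.08, from -1.79 to -2.26, from -1.80 to -2.17 and from -0.01 to -0.10. In Mir302a, Mir302b and Mir302c the groups did not overlap, so no left-out array could have reversed the sign. Those microRNA genes were picked on this gap, so its stability is no support for it. The bounds of the fold rose from 1.59, 1.39 and 1.90 to 3.78, 3.83 and 3.98 with the median olfactory receptor level as background. At that level the values of Mir302a and Mir302c are the measured folds, since none of their arrays lay below it. Quantile and cyclic loess normalization gave 2906 and 2949 calls over all genes against 1848, 37 and 33 against 16 among other microRNA genes, and 6 and 5 against 2 among processing genes; more genes passed and the cause was not tested. With single arrays left out, calls ranged from 0 to 963 over all genes, from 0 to 15 among other microRNA genes, from 0 to 1 among processing genes, from 0 to 2 among promoter factors and from 0 to 3 among reported targets, in fits with fewer samples. With the replicate block limma made 0 calls in the whole table (3827 genes at an unadjusted p under 0.05) and so 0 among other microRNA genes, processing genes, promoter factors and reported targets. The block fit left only 1 residual degree of freedom, so the loss of calls is not read as an effect of pairing. Mkl2-/- replicate 3 has no wild-type partner and did not enter the block differences. They therefore equal the differences without that array and are not a separate check. Same-numbered arrays correlated at -0.20 and 0.19 in their deviations from the group means. With 2 wild-type arrays these deviations mirror each other, so the correlations cannot decide whether the numbers pair the cultures. The filter on dim genes, all features and eBayes with trend and robust kept each count within 1.5 times its value. However, both cluster genes outside the choice missed the threshold with all features. The filter on dim genes removed all 5 cluster genes, so Mir302d and Mir367 were not tested in it. Signal near background limits every statement on the size of the hairpin differences.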

Other observations

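A few more microRNA genes, chosen after their values were seen, did not pass the test. Mir717 stood at 6.74 and 6.84 on the wild-type arrays, against 6.17, 6.25 and 5.87 on the Mkl2-/- arrays (-0.69 ± 0.15, limma adjusted p = 0.0659), and Mir28a differed by -0.45 ± 0.13 (adjusted p = 0.108). Mir200b, of a family known from epithelial cells, differed by 0.86 ± 0.18 (adjusted p = 0.0602). All 3 lay below 7.30 on both wild-type arrays.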
